A study of Mus musculus with 38 samples.

Results

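RNA of 5 chemokine receptor genes, Ccr1, Ccr2, Ccr7, Cx3cr1 and Cxcr4, was followed across 13 sorted populations of mouse myeloid cells. The genes were taken by name, as receptors that steer myeloid cells between bone marrow, blood, skin and lymph node, with earlier results of these data known. Each has a single probe set on the Affymetrix Gene 1.0 ST array, so they are 5 of the 19937 genes with a probe set of 1 gene symbol. The probe sets are 10598004 for Ccr1, 10590631 for Ccr2, 10390763 for Ccr7, 10597743 for Cx3cr1 and 10357472 for Cxcr4. The mice were wild-type C57BL/6 females aged 6 weeks. The contact sensitiser 2,4-dinitrofluorobenzene (DNFB) was painted on the ear as 10 µl of a 0.5% solution in acetone and olive oil, and ears and skin-draining lymph nodes were taken 3 days later. Steady-state mice were untreated, so the effects of DNFB and of its solvent cannot be told apart.

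After DNFB, 5 populations were sorted. They were the CD64+ Ly6C+ cells of the node (CD11c+, MHC II high, CD11b+, CD24-), the migratory dendritic cells (DC) of the node (the same gate but CD64- and Ly6C-), dermal DC, dermal P2 and dermal P1. At steady state there were 8, namely node DC, the dermal macrophages P5 and P4, dermal DC, the dermal monocyte-derived P3, P2 and P1 cells, and Ly6C high CD11b+ blood monocytes. P5 was gated as CD64+, Ly6C-, CCR2- and MHC II+, and P4 likewise but MHC II-. P3 was CD64+, Ly6C low, CCR2+ and MHC II+, P2 was CD64+, Ly6C high, CCR2+ and MHC II+, and P1 was CD64 low, Ly6C high, CCR2+ and MHC II-. Dermal DC were CD24-, Ly6C-, CD64- and MHC II+. Every population had 3 arrays from independent pools of mice, except P1 after DNFB with 2, and each array began with 5 to 20 ng of RNA that was amplified. CCR2 protein was thus a gate for P1 to P5, and Ccr2 RNA between those sorts is not independent of the sort.

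Chemokine receptors are G protein-coupled receptors that turn a gradient of chemokine into directed movement. Ccr2, the receptor for Ccl2, Ccl7 and Ccl12, is needed for Ly6C high monocytes to leave the bone marrow and is used to enter inflamed tissue. Cx3cr1 binds Cx3cl1 (fractalkine), and Ccr1 binds Ccl3, Ccl5 and Ccl7 among others. Ccr7 binds Ccl19 and Ccl21 and brings DC from skin through lymphatic vessels into the node, while Cxcr4 binds Cxcl12, which holds leukocytes in bone marrow and draws them to stroma.

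Levels are log2 array intensities, and a difference of 1 is a 2-fold difference. The array gives no detection calls, so 4.02, the 40th percentile of all values, is used as a mark of low signal. A fold whose lower side lies near or under it has no exact size. In sorted bulk RNA, fewer cells holding a transcript and less RNA per cell cannot be told apart. Pearson correlations of arrays within a group lay between 0.9314 and 0.9858. Of 5 sort markers measured, H2-Ab1 (an MHC II chain) followed the gates, at 11.38 to 12.18 in the MHC II+ sorts, against 9.25 to 9.95 in blood monocytes, P4 and P1. Itgax (CD11c) averaged 7.30 to 8.83 in the CD11c-gated node sorts and 4.95 to 9.11 elsewhere. Against its gate, Itgam (CD11b) averaged 4.74 in node DC after DNFB and 4.62 in node DC at steady state, while the other 11 populations lay between 8.65 and 10.81. Fcgr1 (CD64) averaged 7.98 in dermal DC after DNFB, against 5.94 in dermal DC at steady state, although both sorts were CD64-. Cd24a, gated out, lay between 5.59 and 9.82.

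Receptor RNA separated the populations widely for 4 of the receptors and narrowly for Cxcr4. The highest and lowest group means of Ccr2 lay 6.76 log2 units apart (108-fold), those of Ccr7 5.78 (54.8-fold), those of Ccr1 5.54 (46.7-fold) and those of Cx3cr1 5.19 (36.6-fold). Cxcr4 means spanned 1.44 log2 units (2.72-fold). The SD of the 13 group means was 2.30 for Ccr2, at percentile 99.7 of all genes, 2.04 for Ccr7 (percentile 99.5), 1.81 for Ccr1 (percentile 99), 1.62 for Cx3cr1 (percentile 98.5) and 0.46 for Cxcr4 (percentile 79.7). As the genes were chosen with earlier results known, these percentiles are descriptions and not a test. The median SD within a group was 0.34 for Ccr1, 0.21 for Ccr2, 0.23 for Ccr7, 0.23 for Cx3cr1 and 0.14 for Cxcr4, so the spread between populations was larger than that between arrays for each of the 5.

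**Figure D1:**
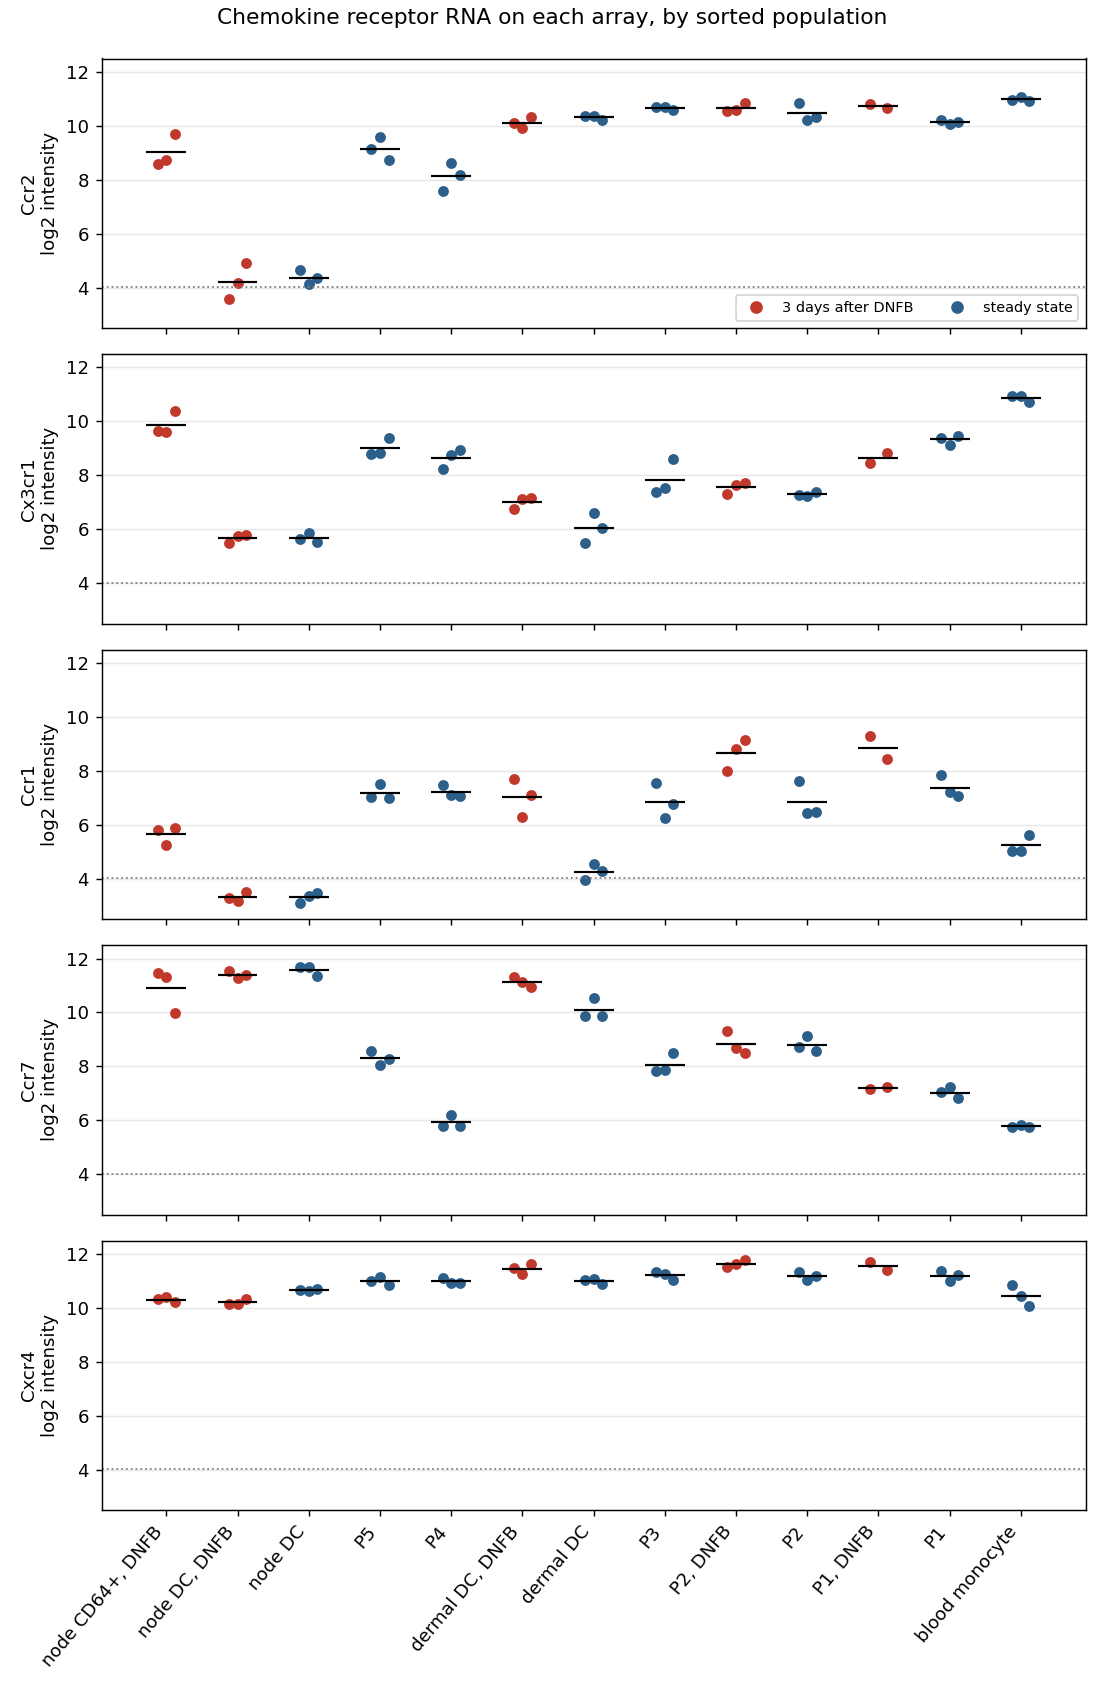
Log2 intensity (y axis) of each of the 5 receptors in every array (points), by population (x axis), red after DNFB and blue at steady state, with a bar at the group mean and a dotted line at 4.02. Ccr2 is near that line in node DC alone, Ccr7 is highest in DC and node CD64+ cells, and Cxcr4 stays between 10.05 and 11.78 in all 38 arrays.

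Promoter sequences were looked up in a RefSeq table (assembly GRCm38.p6, 250 bases before to 50 after the start it uses), which matched 4 of the 5 receptors (Ccr7 was not matched). For Ccr1, Cx3cr1 and Cxcr4 that start is the outer end of the gene in the RefSeq gene table. For Ccr2 it lies 265 bases inside the gene, so the window falls within the annotated gene, and its base composition describes that window and not the sequence before the outermost start. Those of Ccr2 and Cxcr4 are shown because these genes had the widest and the narrowest range of levels. Capitals mark matches to a palindromic NRF-1 motif (further upstream) and to the TATA motif TATAAA, both strands searched.
Ccr2 promoter, chr9:124101933-124102232, plus strand: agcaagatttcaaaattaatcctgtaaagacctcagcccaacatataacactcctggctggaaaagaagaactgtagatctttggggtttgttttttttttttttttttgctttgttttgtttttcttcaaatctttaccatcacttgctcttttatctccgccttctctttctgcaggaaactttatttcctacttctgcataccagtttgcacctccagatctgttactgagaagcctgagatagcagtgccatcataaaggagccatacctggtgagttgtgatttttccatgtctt
Cxcr4 promoter, chr1:128592250-128592549, minus strand: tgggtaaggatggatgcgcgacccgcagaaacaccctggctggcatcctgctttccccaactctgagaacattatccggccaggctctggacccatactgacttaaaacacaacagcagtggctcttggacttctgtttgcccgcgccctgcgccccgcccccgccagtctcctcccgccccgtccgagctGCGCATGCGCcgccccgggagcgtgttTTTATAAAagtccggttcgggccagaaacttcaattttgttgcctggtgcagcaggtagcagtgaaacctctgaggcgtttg
The Ccr2 window, around its inner start, had 38% G and C and 1 CpG, at percentiles 7.0 and 5.4 of 32851 promoters. The Cxcr4 window had 59.3% G and C and 20 CpGs, at percentiles 68.9 and 73.5, and the medians over all promoters were 52.7% and 7 CpGs. The NRF-1 motif was found once in the Cxcr4 window, and 0.971% of promoters hold it. TATAAA gave 2 overlapping matches there, on opposite strands of 1 site, and 13.6% of promoters hold it. The windows of Ccr1 (44.0% G and C, 1 CpG) and Cx3cr1 (54.3%, 5 CpGs) held neither motif, and each held 1 match to a loose NF-kB motif, which 50.8% of promoters hold. Matches to ACGTG (19.6% of promoters), TGANTCA (7.81%) and GAGGAAGT (3.2%) were absent from these 4 windows. All are matches of letters and not measured sites.

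Limma fits across all genes gave 21 comparisons, hence 105 tests on the receptors, with p-values adjusted by Benjamini-Hochberg over 19937 genes. A receptor is said to rise or fall at an adjusted p under 0.05. Ccr7 passed in 11 of 21 comparisons (9 rises, 2 falls), Ccr1 in 10 (5 and 5), Cx3cr1 in 9 (5 and 4), Ccr2 in 8 (1 and 7) and Cxcr4 in 4 (1 and 3). Many comparisons share a group of arrays, so these counts are not independent of each other. The Ccr2 count includes P4 against P1 and P5 against P3, where the sort itself used CCR2 protein.

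At steady state, P1 cells differed from blood monocytes in all 5 receptors, where 12.6% of all genes passed. P2 against P1 passed for 2 receptors (2.09% of genes), P4 against P1 for 2 (11.9%), P5 against P4 for 1 (0.492%), P5 against P3 for 2 (1.25%), dermal DC against P3 for 3 (1.8%) and P5 against dermal DC for 4 (6.52%). The counts for P4 against P1 and for P5 against P3 each include Ccr2, and those sorts were gated apart by CCR2 protein. P3 against P2 passed for 0 by limma (0.371% of genes), with 1 receptor at an unadjusted p under 0.05. DNFB changed 3 receptors in dermal DC (4.16% of genes), 1 in P2 (2.02%), 0 in P1 (0.637%) and 0 in node DC (1.34%). At an unadjusted p under 0.05 limma gave 3 in P1 and 1 in node DC. After DNFB, P2 against P1 passed for 1 receptor (0.612%) and dermal DC against P2 for 2 (3.38%). Node DC against dermal DC passed for 2 at steady state (20.3%) and 4 after DNFB (17.5%). Node CD64+ cells passed for 3 against node DC (4.82%) and 5 against P2 (12.6%), all after DNFB.

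Ccr2 RNA was high in every blood and dermal population, and near the mark of low signal in node DC. In node DC at steady state its 3 arrays were at 4.65, 4.12 and 4.35, against 10.38, 10.35 and 10.23 in dermal DC. After DNFB node DC were at 3.58, 4.18 and 4.92, against 10.12, 9.91 and 10.33 in dermal DC. The arrays of the 2 sites did not come near each other in either condition. Ccr2 fell by 5.95 (SE 0.27, 61.8-fold, adjusted p = 3.54e-16) in node DC at steady state and by 5.90 (SE 0.27, 59.6-fold, adjusted p = 6.32e-16) after DNFB, and both folds lack an exact size because the node levels are low. Means of 5 macrophage genes were 4.26 to 4.46 in node DC at steady state, against 7.56 to 7.90 in dermal DC (0 rose, 4 fell). After DNFB these means were 4.04 to 4.47, against 6.69 to 7.27 (0 rose, 4 fell). The part of these genes' cells in this and the other differences between node and dermal DC was not tested.

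Node CD64+ cells held much more Ccr2 RNA than node DC. Their arrays stood at 8.60, 8.73 and 9.71, all above the 3 node DC arrays after DNFB given above, and Ccr2 was 4.79 higher (SE 0.27, 27.6-fold, adjusted p = 2.29e-13). P2 cells of the DNFB-treated dermis were at 10.57, 10.61 and 10.85, and the node CD64+ cells lay below these by a difference of -1.66 (SE 0.27, 3.16-fold, adjusted p = 4.62e-05). The groups did not overlap, and the third node CD64+ array stood above the other two.

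Among CCR2-gated dermal sorts, RNA followed the gate. P4 arrays were at 7.60, 8.62 and 8.19, against 10.23, 10.06 and 10.14 in P1, and Ccr2 fell by 2.01 (SE 0.27, 4.02-fold, adjusted p = 3.75e-06). P5 arrays were at 9.13, 9.58 and 8.73, against 10.70, 10.70 and 10.60 in P3, a difference of -1.52 (SE 0.27, 2.87-fold, adjusted p = 0.0019). P4 and P5, gated CCR2-, thus still gave array levels of 7.60 to 9.58, well above the node DC. P5 differed from P4 by 1.01 (SE 0.27, adjusted p = 0.113), and by 1.25 without the second P4 array (adjusted p = 0.0395). P5 were also below dermal DC, which had no CCR2 gate, by a difference of -1.18 (SE 0.27, 2.26-fold, adjusted p = 0.00581). That call was lost without the third P5 array (adjusted p = 0.0607).

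Ccr2 differed little along the monocyte sequence from blood to P3. Blood monocytes were highest of all populations at 10.95, 11.07 and 10.94, and P1 lay below them by a difference of -0.84 (SE 0.27, 1.79-fold, adjusted p = 0.0413). This call was lost when any 1 of the 6 arrays was left out (adjusted p = 0.0604 to 0.121). P2 arrays, at 10.83, 10.23 and 10.34, gave a difference of 0.32 from P1 (SE 0.27, adjusted p = 0.774), and P3 gave 0.20 from P2 (adjusted p = 0.95). In the order of means blood stood clear of the next group, P1 after DNFB at 10.81 and 10.66. The arrays of each neighbour then overlapped down to dermal DC at steady state. DNFB gave Ccr2 no change that passed in P1 (0.59, 95% interval -0.04 to 1.23), P2 (0.21, -0.36 to 0.77), dermal DC (-0.20, -0.76 to 0.36) or node DC (-0.15, -0.71 to 0.41).

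Cx3cr1 RNA was highest in blood monocytes, lower in each Ly6C high dermal sort, and lowest in DC of the node. Blood arrays were at 10.94, 10.93 and 10.72, the P1 arrays at 9.39, 9.12 and 9.48 and the P2 arrays at 7.29, 7.25 and 7.38, with no overlap between these 3 groups. P1 lay below blood by a difference of -1.53 (SE 0.27, 2.90-fold, adjusted p = 0.000172), and P2 below P1 by a difference of -2.03 (SE 0.27, 4.07-fold, adjusted p = 1.18e-05). P3 arrays were at 7.37, 7.52 and 8.59, overlapping those of P2, with a difference of 0.52 (95% interval -0.03 to 1.07, adjusted p = 0.606). After DNFB, P2 arrays at 7.30, 7.64 and 7.73 lay below P1 arrays at 8.44 and 8.81 without overlap, but the difference of -1.07 did not pass (SE 0.30, adjusted p = 0.125).

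Dermal macrophages held more Cx3cr1 RNA than dermal DC. P5 arrays were at 8.80, 8.84 and 9.40, against 5.50, 6.62 and 6.05 in dermal DC, and the gene was 2.95 higher in P5 (SE 0.27, 7.74-fold, adjusted p = 1e-08). P5 was also 1.19 above P3 (SE 0.27, 2.28-fold, adjusted p = 0.0186). This call rested on single arrays, being lost without the first (0.152) or the second (0.121) P3 array or the third P5 array (0.139, all adjusted p). P4, at 8.24, 8.76 and 8.95, overlapped P5, which differed from it by 0.36 (adjusted p = 0.885), and differed from P1 by -0.68 (adjusted p = 0.102). Dermal DC were below P3 by a difference of -1.77 (SE 0.27, 3.40-fold, adjusted p = 0.000167).

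In the node, Cx3cr1 marked the CD64+ cells. Their arrays read 9.65, 9.61 and 10.38, against 5.49, 5.76 and 5.77 in node DC after DNFB, a difference of 4.21 (SE 0.27, 18.4-fold, adjusted p = 1.76e-12). They were also 2.32 above P2 after DNFB (SE 0.27, 5.00-fold, adjusted p = 1.39e-07), and blood monocytes alone had a higher mean. Node DC at steady state were at 5.63, 5.87 and 5.52 and differed from dermal DC by -0.39 (adjusted p = 0.371). After DNFB node DC lay below dermal DC, whose arrays read 6.76, 7.12 and 7.14, by a difference of -1.33 (SE 0.27, 2.52-fold, adjusted p = 0.00038).

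DNFB changed Cx3cr1 in dermal DC among the 4 populations tested. The 3 dermal DC arrays after DNFB lay above all 3 at steady state, a rise of 0.95 (SE 0.27, 1.93-fold, adjusted p = 0.0376), and this call was lost without any 1 of 5 of the 6 arrays (adjusted p = 0.0513 to 0.27). Monocyte marker means were higher and macrophage marker means lower in the same DNFB arrays (values with Ccr1), and their part was not tested. With array medians centred it was 0.86 and did not pass (adjusted p = 0.072). The DNFB difference was 0.25 in P2 (95% interval -0.29 to 0.80), -0.70 in P1 (-1.32 to -0.09) and 0.00 in node DC (-0.54 to 0.55), and these did not pass. The effect in dermal DC was not shown to differ from that in P2 (difference of effects 0.70, adjusted p = 0.886) or in node DC (node DC minus dermal DC -0.95, adjusted p = 0.326).

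Ccr1 RNA was high in dermal monocyte-derived cells and macrophages, lower in blood monocytes, and lowest in node DC. P1 arrays were at 7.86, 7.23 and 7.05, against 5.05, 5.04 and 5.62 in blood, and Ccr1 was 2.15 higher in P1 (SE 0.36, 4.43-fold, adjusted p = 8.97e-05). P2 (7.62, 6.42 and 6.46), P3 (7.54, 6.25 and 6.76), P4 (7.49, 7.09 and 7.08) and P5 (7.02, 7.504 and 7.01) all overlapped P1. None of the differences P2 minus P1 (-0.55), P3 minus P2 (0.02), P4 minus P1 (-0.16), P5 minus P4 (-0.04) or P5 minus P3 (0.32) passed.

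Dermal DC stood below these cells. Their steady-state arrays read 3.94, 4.56 and 4.29, below P3 by a difference of -2.59 (SE 0.36, 6.01-fold, adjusted p = 4.62e-05), and P5 were 2.91 above dermal DC (SE 0.36, 7.52-fold, adjusted p = 1.4e-06). The DC arrays straddle or lie just above the mark of low signal, so these folds have no exact size.

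Among the 5 receptors, Ccr1 had the largest DNFB difference in dermal DC, in P2 and in P1. Dermal DC arrays reached 7.69, 6.30 and 7.09 after DNFB, against the steady-state arrays given above, a rise of 2.76 (SE 0.36, 6.80-fold, adjusted p = 6.16e-06). P2 arrays reached 8.01, 8.83 and 9.15, none within the steady-state range of 6.42 to 7.62, a rise of 1.83 (SE 0.36, 3.55-fold, adjusted p = 0.00317). P1 arrays stood at 9.29 and 8.42, above the steady-state P1 arrays, and the difference of 1.47 (SE 0.40, 95% interval 0.66 to 2.29) did not pass (adjusted p = 0.0913), though it did without the first steady-state array (1.71, adjusted p = 0.0473). After DNFB dermal DC remained below P2, by a difference of -1.63 (SE 0.36, 3.10-fold, adjusted p = 0.00497), a call lost without the third P2 array (0.0541) or the second DC array (0.0717). Markers of other cells moved in the same arrays. In dermal DC, means of 4 monocyte genes were 6.32 to 6.75 after DNFB, against 5.18 to 5.71 at steady state (2 of 4 rose, 1 fell), means of 5 macrophage genes were 6.69 to 7.27, against 7.56 to 7.90 (1 rose, 2 fell), and Fcgr1 differed as given above. In P2, monocyte means were 10.15 to 10.54 after DNFB, against 8.81 to 9.73 at steady state (1 of 4 rose), and means of 8 neutrophil genes were 5.27 to 5.92, against 4.38 to 4.80 (1 of 8 rose). Their part in the Ccr1 results was not tested. The DNFB effect on Ccr1 in dermal DC minus that in P2 was 0.94 and that in P2 minus that in P1 was 0.36, and neither difference of effects passed (adjusted p = 0.883 for the first).

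Node DC did not show that rise. Their Ccr1 arrays read 3.29, 3.18 and 3.50 after DNFB, against 3.10, 3.36 and 3.48 at steady state, all below 4.02, with a difference of 0.01 (95% interval -0.72 to 0.74). The DNFB effect in node DC minus that in dermal DC was -2.75 (SE 0.50, adjusted p = 0.00242), and 2 of the 5 receptors passed this comparison, as did 1.31% of genes. After DNFB node DC were below dermal DC by a difference of -3.71 (SE 0.36, 13.05-fold, adjusted p = 2.66e-09), with the node side at low signal. At steady state the difference was -0.95 (SE 0.36, adjusted p = 0.0583). Node CD64+ cells, at 5.82, 5.27 and 5.87, were 2.33 above node DC (SE 0.36, 5.03-fold, adjusted p = 3.07e-05) and differed from P2 after DNFB by -3.01 (SE 0.36, 8.05-fold, adjusted p = 2.23e-07).

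**Figure D2:**
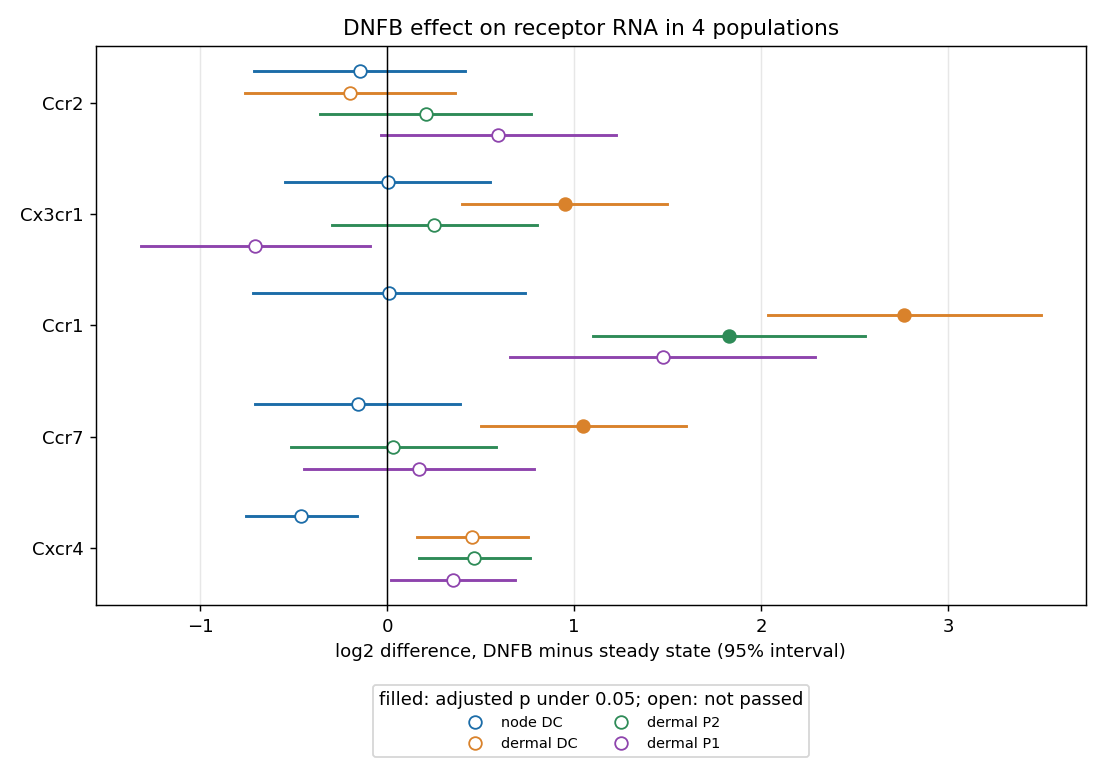
DNFB effect on each receptor (y axis) as the log2 difference DNFB minus steady state (x axis) with its 95% interval, in node DC, dermal DC, P2 and P1, with filled points where the limma adjusted p is under 0.05. Ccr1 is raised by 2.76 in dermal DC and by 1.83 in P2, and lies at 0.01 in node DC.

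Ccr7 RNA was higher in P1 than in blood, higher again in P2, and highest in DC. Blood arrays read 5.75, 5.84 and 5.77, P1 arrays 7.04, 7.22 and 6.82, and P2 arrays 8.72, 9.12 and 8.57, with no overlap. P1 was 1.24 above blood (SE 0.27, 2.37-fold, adjusted p = 0.0019) and P2 was 1.78 above P1 (SE 0.27, 3.42-fold, adjusted p = 0.000108). Means of 5 conventional DC genes were 6.294 to 6.617 in these P2 arrays, against 5.507 to 5.585 in P1 (2 rose, 0 fell). Their part in the Ccr7 difference was not tested. After DNFB the P2 arrays, at 9.32, 8.69 and 8.49, were again above those of P1, at 7.17 and 7.22, by 1.64 (SE 0.30, 3.11-fold, adjusted p = 0.00348). This call was lost without the first P1 array (adjusted p = 0.0924). P3 arrays, at 7.85, 7.87 and 8.48, lay below those of P2, and the difference of -0.74 did not pass (95% interval -1.29 to -0.19, adjusted p = 0.315).

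The 2 macrophage sorts, which were gated apart by MHC II, differed in Ccr7. P5 arrays stood at 8.58, 8.07 and 8.27, against 5.78, 6.19 and 5.79 in P4, a rise of 2.39 (SE 0.27, 5.23-fold, adjusted p = 1.32e-06). Ccr7 was the receptor of the 5 that passed there. Means of 5 conventional DC genes were 5.69 to 5.92 in P5 arrays, against 4.63 to 4.95 in P4 (2 rose, 0 fell), and their part was not tested. P4 were below P1 by a difference of -1.11 (SE 0.27, 2.16-fold, adjusted p = 0.00512), while P5 overlapped P3 with a difference of 0.24 (adjusted p = 0.959). In the order of means P4 and blood monocytes were the 2 lowest and overlapped.

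By group mean, dermal DC held the most Ccr7 RNA of the dermal sorts in both conditions. Their steady-state arrays read 9.86, 10.53 and 9.87, above P3 by 2.02 (SE 0.27, 4.05-fold, adjusted p = 2.95e-05), and P5 lay below them by a difference of -1.78 (SE 0.27, 3.43-fold, adjusted p = 3.46e-05). After DNFB dermal DC read 11.33, 11.12 and 10.95 with no overlap with steady state, a rise of 1.05 (SE 0.27, 2.07-fold, adjusted p = 0.0187). That call was lost without the first or the third steady-state array (adjusted p = 0.101 and 0.0972) or the first or the second DNFB array (0.108 and 0.0561). Means of 5 conventional DC genes were 8.293 to 8.648 in dermal DC after DNFB, against 7.642 to 7.895 at steady state (2 rose, 0 fell). Their part in the Ccr7 rise was not tested. DNFB gave differences of 0.03 in P2 and 0.17 in P1 that did not pass. Dermal DC after DNFB were 2.30 above P2 (SE 0.27, 4.92-fold, adjusted p = 1.03e-06).

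In the node, DC arrays at steady state read 11.68, 11.67 and 11.34, above dermal DC by 1.48 (SE 0.27, 2.78-fold, adjusted p = 0.000102). After DNFB they read 11.54, 11.29 and 11.39, and the difference from dermal DC was 0.27 (95% interval -0.28 to 0.82, adjusted p = 0.64). The change in that difference, -1.21, did not pass (adjusted p = 0.14), so the node to skin gap is not shown to differ between conditions. This change passed in 2 of 24 other settings, array weights (-1.20, limma adjusted p = 0.0312) and the compared groups alone (-1.21, 0.0391). Node CD64+ cells, at 11.46, 11.32 and 10.00, were 2.09 above P2 after DNFB (SE 0.27, 4.25-fold, adjusted p = 9.11e-07) and differed from node DC by -0.48 (adjusted p = 0.44). The third of these arrays stood below the other two, and is the one with the highest Ccr2 and Cx3cr1 of its group. Its macrophage marker mean was 8.81, against 7.71 and 7.46 in the other two, and its mean over 5 conventional DC genes was 7.40, against 8.10 and 8.11. Without this array Ccr7 was 2.55 above P2 (adjusted p = 2.24e-09) and differed from node DC by -0.02 (0.99), Ccr2 differed from P2 by -2.01 and from node DC by 4.44, and Cx3cr1 by 2.07 and 3.96. In node CD64+ cells against P2, 4 of 5 conventional DC genes rose and 1 fell (median 2.72) and 3 of 4 monocyte genes fell, and their part in the Ccr7 rise was not tested.

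**Figure D3:**
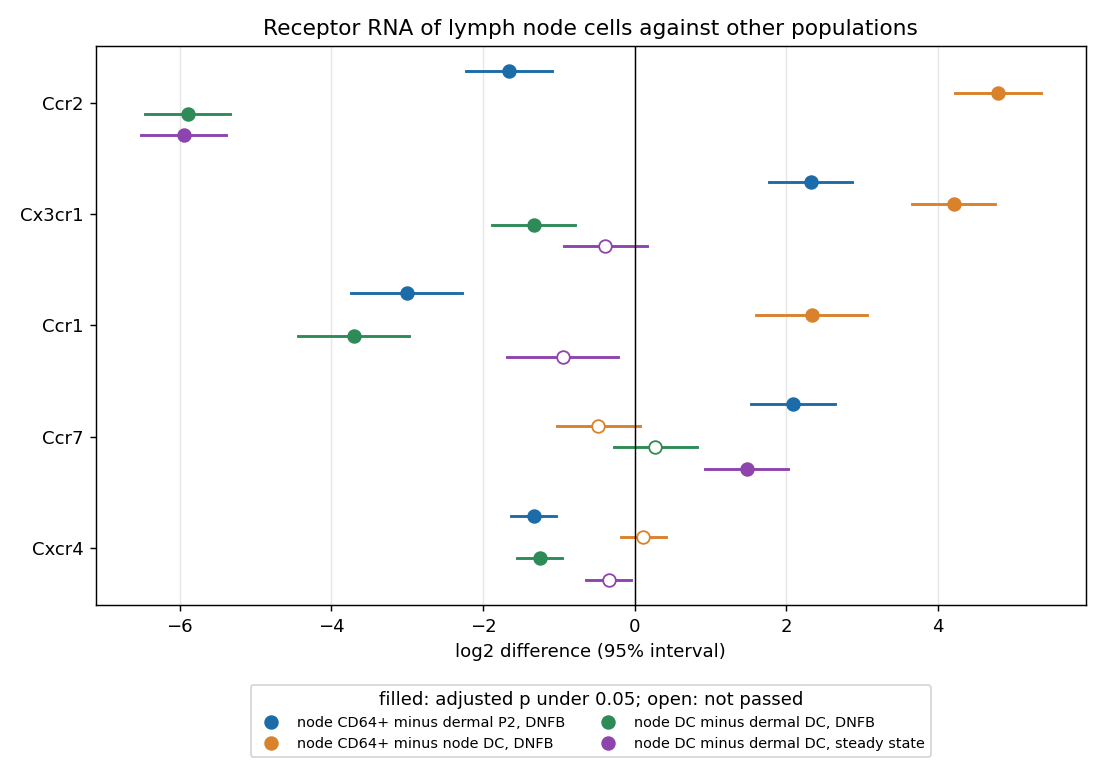
Log2 differences (x axis, points with 95% intervals) of each receptor (y axis) for node CD64+ cells minus P2 and minus node DC after DNFB, and for node DC minus dermal DC after DNFB and at steady state, filled where the limma adjusted p is under 0.05. Ccr2 lies at -5.90 and -5.95 for node DC minus dermal DC, and at 4.79 for node CD64+ cells minus node DC.

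Cxcr4 RNA was high in every population and differed by small steps. Dermal groups had means of 10.99 to 11.65 and the other groups, of node and blood, 10.20 to 10.66, which was the single place in the order of 13 means where neighbours did not overlap. P1 arrays read 11.36, 11.00 and 11.22, against 10.86, 10.44 and 10.05 in blood, and Cxcr4 was 0.75 higher in P1 (SE 0.14, 1.68-fold, adjusted p = 0.000629). P2 (11.34, 11.03 and 11.17), P3 (11.35, 11.25 and 11.02), P4 (11.11, 10.91 and 10.94), P5 (10.99, 11.13 and 10.86) and dermal DC (11.04, 11.08 and 10.90) lay close together. The 7 Cxcr4 differences tested between these steady-state dermal groups lay between -0.21 and 0.03, and 0 passed by limma or had an unadjusted p under 0.05.

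DNFB differences in Cxcr4 were positive in the 3 dermal groups and negative in node DC, and none of the 4 passed alone. Dermal DC read 11.48, 11.27 and 11.62 (difference 0.46, 95% interval 0.16 to 0.75, adjusted p = 0.0768), and P2 read 11.53, 11.64 and 11.78 (0.47, 0.17 to 0.76, adjusted p = 0.101). P1 read 11.69 and 11.40 (0.35, 0.02 to 0.68, adjusted p = 0.439). Node DC read 10.13, 10.15 and 10.33 after DNFB, against 10.68, 10.62 and 10.69 at steady state, without overlap (-0.46, -0.76 to -0.16, adjusted p = 0.155). The DNFB effect in node DC minus that in dermal DC was -0.91 (SE 0.20, adjusted p = 0.0163), and this call was lost without the third dermal DC array of either condition (adjusted p = 0.0518 at steady state and 0.0593 after DNFB). After DNFB node DC were below dermal DC by a difference of -1.26 (SE 0.14, 2.39-fold, adjusted p = 8.75e-08). Node CD64+ cells, at 10.33, 10.40 and 10.21, were below P2 by a difference of -1.33 (SE 0.14, 2.52-fold, adjusted p = 4.99e-08) and differed from node DC by 0.11 (adjusted p = 0.821).

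No receptor passed the other tests of a difference between DNFB effects by limma, dermal DC minus P2 (0.251% of genes) and P2 minus P1 (0.0552%). At an unadjusted p under 0.05, 1 receptor did in each.

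RNA of other skin cells and of cell stress moved with several of these results. Keratinocyte marker means over 11 genes were 6.90 to 8.09 in P1 arrays, against 4.22 to 4.37 in blood, and 9 of the 11 rose. Fibroblast marker means over 10 genes were 6.34 to 10.16 in P1, against 4.17 to 4.29 in blood, with 9 of 10 rising. When both list means were added as covariates, P1 against blood passed for 2 of the 5 receptors. The values lost were -0.45 for Ccr2 (SE 0.59, adjusted p = 0.907), 0.64 for Ccr7 (SE 0.55, 0.809) and -1.70 for Cx3cr1 (SE 0.57, 0.174). Each of these SEs was 0.27 without the covariates, where the Cx3cr1 difference was -1.53. Both list means separate P1 from blood without overlap, so their part and that of the tissue cannot be told apart in this fit. Keratinocyte means were 4.43 to 4.69 in node DC, against 6.74 to 7.43 in dermal DC at steady state, where 9 of 11 genes fell. After DNFB 2 keratinocyte genes and 1 fibroblast gene fell both in P2 and in dermal DC. The covariate fit ended the DNFB calls of Ccr1 in P2 (1.19, SE 0.41, adjusted p = 0.233) and Cx3cr1 in dermal DC (1.07, SE 0.32, adjusted p = 0.0562). Without the covariates these differences were 1.83 (SE 0.36) and 0.95 (SE 0.27), so that of Cx3cr1 did not shrink. Over all genes the covariate fit called 152 for DNFB in P2, against 402 without covariates, and 750 in dermal DC, against 830. T cell marker means were 5.08 to 5.49 in dermal DC after DNFB, against 4.49 to 5.08 at steady state, and 3 of 7 genes rose and 1 fell there. T cells can hold Ccr7 and Cxcr4 RNA, and the part of these cells in the results was not tested. Means of dissociation stress genes were 8.85 to 9.61 in node arrays, against 9.73 to 10.70 in dermis, and their part was not tested.

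Across the 13 group means, Ccr7 and Cx3cr1 ran in opposite directions (Pearson r = -0.693, and -0.9 over the 8 steady-state means). Node CD64+ cells were high in both. Ccr1 ran with Cxcr4 (0.801) and with Ccr2 (0.692), and Ccr7 ran against Ccr1 (-0.552) and Ccr2 (-0.541). Cxcr4 showed little relation to Cx3cr1 (-0.062). These are descriptions of means that share arrays, tissue and sort, with n = 13 points, and no p is given.

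**Figure D4:**
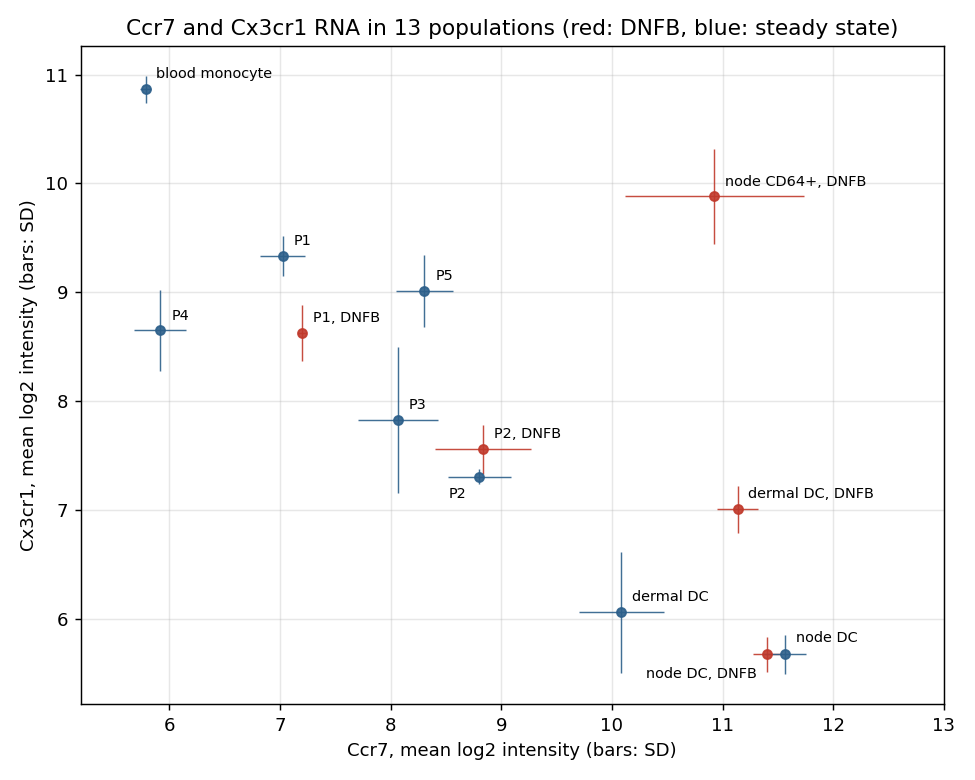
Mean Cx3cr1 (y axis) against mean Ccr7 (x axis), in log2 intensity, for the 13 populations, after DNFB (red) or at steady state (blue), with SD as bars. Blood monocytes are at a Ccr7 of 5.79 and a Cx3cr1 of 10.87, steady-state node DC at 11.56 and 5.67, and node CD64+ cells are high in both at 10.92 and 9.88.

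Genes with the most similar profiles were sought among 3595 genes whose group means had an SD of at least 0.5, over the same 13 means. Ccr7 was most similar to Ccl22, a chemokine of mature DC (r = 0.957), Mmp25 (0.949), Traf1 (0.947), Ubxn2a (0.933) and Slc25a4 (0.931). Cx3cr1 was most similar to Lrmda (0.933), Nlrc4, an inflammasome sensor (0.916), Hip1 (0.9), Lair1, an inhibitory collagen receptor (0.899) and Prkcb (0.887). For Ccr2 they were Arhgap25 (0.971), Gm2a (0.97), Cd300c2 (0.969), Nrros (0.968) and Cd300a (0.96), and for Ccr1 Gab1, a signalling adaptor (0.972), Pde8a (0.919), Ctsl (0.918), Nt5dc3 (0.904) and Rbm47 (0.9). Cxcr4 was most similar to Vegfa (0.943), Slc39a14 (0.943), Jmy (0.942), Dmkn (0.941) and Jdp2 (0.94).

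Of the 17 other chemokine receptors measured, DNFB raised 1 in dermal DC (Ccr8 by 0.48, at 3.87 after DNFB, against 3.39 at steady state, so at low signal in both), 0 in P2 and 0 in P1. It raised 1 in node DC (Cxcr5 by 1.35, at 4.65 after DNFB, against 3.30). In node DC against dermal DC at steady state 2 rose, Ccr6 (1.25) and Ackr1 (0.92), and 2 fell, Cxcr3 (-1.18) and the atypical receptor Ccrl2 (-1.05), which is 23.5% of the list, beside 20.3% of all genes. In node CD64+ cells against node DC Cxcr2, a neutrophil chemokine receptor, rose by 2.31 from a low signal of 3.38 in node DC, and Ccr6 fell by 0.82 (11.8% of the list, beside 4.82% of all genes). In node CD64+ cells against P2 after DNFB 3 rose, Cxcr2 (1.66), Cxcr5 (0.96) and Ccr6 (0.96), and Ccrl2 fell by 1.79 (23.5%, beside 12.6%). The median difference of the list was 0.05 in node DC against dermal DC at steady state, beside 0.05 for all genes. Low signal also held for Cxcr5 in steady-state node DC (3.30) and for Ccr6 (3.89) and Ackr1 (4.17) in steady-state dermal DC. In P2 after DNFB it held for Cxcr2 (4.03), Cxcr5 (3.50) and Ccr6 (3.95). The rises from these levels have no exact size.

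Of 11 other receptors for leukocyte attractants, 4 fell and 0 rose in dermal DC against P3, with C5ar1, the complement C5a receptor, at -2.81, the sphingosine 1-phosphate receptor S1pr1 at -2.33, Cmklr1 at -2.04 and C3ar1 at -1.19 (list median -0.30, all genes 0.01). These are 36.4% of the list, beside 1.8% of all genes. In node DC against dermal DC at steady state 3 rose and 4 fell, among them the C3a receptor C3ar1 (-6.15, SE 0.31, adjusted p = 2.4e-15) and the leukotriene B4 receptor Ltb4r1 (-3.57, SE 0.38, adjusted p = 1.85e-08), and 63.6% of the list passed, beside 20.3% of all genes. DNFB in dermal DC raised S1pr3 by 1.56, the oxysterol receptor Gpr183 by 1.24 and the prostaglandin E2 receptor Ptger4 by 0.82, while C3ar1 fell by 2.27, 1 of 2 falls (45.5% passed, beside 4.16%). Node CD64+ cells against node DC had 3 rises, C3ar1 (5.44), Cmklr1 (3.95) and C5ar1 (2.51), and 0 falls (27.3%, beside 4.82%). C3ar1 in node DC was under the mark of low signal, at 3.85 at steady state and 3.45 after DNFB. S1pr3 was near that mark in dermal DC at steady state (4.26). Differences from these levels have no exact size.

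Of 12 chemokine ligands of the 5 receptors, 4 rose in P1 against blood, namely Ccl7 (4.58, SE 0.45, adjusted p = 1.6e-08), Ccl4 (1.97), Cxcl12 (1.62) and Ccl3 (1.35), with a list median of 0.86, beside 0.01 for all genes (33.3% passed, beside 12.6%). The P1 arrays were uneven for Cxcl12 (mean 5.61, SD 1.62) and Ccl7 (mean 9.36, SD 1.32), while the SD was 0.36 for both Ccl4 and Ccl3. In dermal DC after DNFB 0 rose and 4 fell, which were Ccl2 (-1.93, SE 0.33, adjusted p = 0.000352), Ccl7 (-1.91), Ccl6 (-1.14) and Ccl9 (-0.77), with a median of -0.33, beside 0.02 (33.3%, beside 4.16%). P2 after DNFB had 1 rise, the Ccr2 ligand Ccl12 (3.10, SE 0.79, adjusted p = 0.0306), which is 8.33% of the list, beside 2.02%. The Ccl12 arrays were uneven, with an SD of 1.58 in P2 after DNFB and 2.12 at steady state. Node DC against dermal DC at steady state had 3 rises and 6 falls, with Ccl2 at -6.09 and Ccl7 at -5.05 (median -1.60, beside 0.05, with 75% passed, beside 20.3%), and node CD64+ cells against node DC had 7 rises and 1 fall, with Ccl7 at 3.97 and Ccl2 at 3.65 (median 1.85, beside -0.07, with 66.7% passed, beside 4.82%). Cxcl12, the Cxcr4 ligand, is made chiefly by stromal cells, and fibroblast genes rose in the same P1 arrays, as given above, which was not tested against it. Cxcl12 was at low signal in blood (3.99), and Ccl7 (4.46) and Ccl2 (4.65) lay near the mark in steady-state node DC. Differences from these levels have no exact size.

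Genes of receptor signalling and desensitisation (24 measured) had 1 rise and 14 falls in P1 against blood (62.5% passed, beside 12.6% of all genes, with a median of -0.81, beside 0.01). The rise was Rgs1, a brake on G protein signalling (4.01), and the falls with the smallest adjusted p were the receptor kinase Grk6 (-1.16), the arrestin Arrb1 (-1.15) and the exchange factor Vav1 (-1.11). Vav1 and Rgs2 rose with DNFB in P1 (1.27 and 0.62), P2 (0.94 and 0.64) and dermal DC (0.91 and 0.79), and did not pass in node DC, where 0 of 24 passed. Node DC against dermal DC at steady state had 5 rises and 9 falls, with Rgs18 at -4.14, Plcb2 at -2.48, Arrb1 at -2.07 and Rgs2 at -1.06 (58.3%, beside 20.3%), and node CD64+ cells against node DC had 8 rises and 0 falls, with Rac2 at 1.36 and Vav1 at 1.34 (33.3%, beside 4.82%). In steady-state node DC Rgs18 (3.28) was under the mark of low signal and Plcb2 (4.41) near it, so these falls have no exact size.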

How the data were processed

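RNA of 13 sorted mouse populations was hybridised to 38 Affymetrix Gene 1.0 ST arrays after amplification. Each deposited value is the log2 intensity of a probe set. The authors used RMA and affy (per the submitters' processing notes, versions not given). The genome build is not given in the sources used here. The values were not scaled further, and the number of arrays limits precision. Of 34760 probe sets, 21640 with 1 gene symbol were kept (1321 had several symbols, 11799 none, and 21553 of the kept ones matched a RefSeq gene). Where several shared a symbol, that of highest mean stood for the gene, leaving 19937 genes.

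Group means were estimated with limma 3.58.1 (R 4.3.3), using moderated tests (25 residual and 3.13 prior degrees of freedom) and Benjamini-Hochberg adjustment over 19937 genes per comparison. Of 21 comparisons, 18 compare groups and 3 compare DNFB effects. An exact permutation test of 3 against 3 arrays cannot go below p = 0.1, so all p-values are limma's. The labels describe 3 chip batches without assigning arrays to them, so batch could not be fitted. The 5 receptors, the gene lists and the rules were chosen with earlier results of these data known. Named genes are the receptors, the 5 genes of most similar profile to each, up to 4 called members per list and comparison by smallest adjusted p, and sort markers. Lists held 173 genes, of which 161 were measured. The fit was tested on simulated data over 19937 genes: over 5 comparisons it recovered 62 (DNFB in P1) to 80 (DNFB in P2) of 100 genes with a 2-fold change and 94 to 99 of 100 with a 4-fold change, and it called 5 (DNFB in P1) to 16 (P2 against P1) unchanged genes. The simulated noise was normal, independent between genes and of equal spread in all groups, without batches or RNA of other cells. These counts thus check the fit and need not hold for the real arrays. Alternatives were other scalings, a filter on dim genes, probe set rules, variance models, array weights, blocks, covariates, a 2-fold minimum, fewer groups and left-out arrays. Promoters are RefSeq sequences (GRCm38.p6). Plots used Python 3.11.15 and matplotlib 3.10.9.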

Additional observations from a re-analysis of the deposited data

Results flagged for a closer look

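The DNFB effects of 2 receptors differed between node DC and dermal DC by a test of the difference itself. The effect on Ccr1 in node DC minus that in dermal DC was -2.754 (SE 0.50, limma adjusted p = 0.00242), with Ccr1 higher after DNFB in 3 of 3 dermal DC arrays and node DC arrays at low signal in both conditions. The effect on Cxcr4 in node DC minus that in dermal DC was -0.9137 (SE 0.20, limma adjusted p = 0.0163), with all 3 node DC arrays lower and all 3 dermal DC arrays higher after DNFB than at steady state.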

How the results depend on the processing

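Of 105 receptor results 42 were called, and 28 of these were called in every one of 12 named settings and with each array left out. Over 1965 repeats the call was the same in 1901, lost in 46 and gained in 18, no called value changed sign, and 68 uncalled values did. The number of receptors called moved by over 1.5 times as follows. With the skin cell marker means as covariates it was 2 for P1 against blood, 0 for DNFB in P2, 1 for DNFB in P1, 4 for node against dermal DC at steady state (Ccr1 at -2.05 and Cxcr4 at -0.73 gained) and 1 for the node minus dermal DC effect. With only the compared groups fitted it was 0 for P5 against P3, 0 for DNFB in P2, 0 for P2 against P1 after DNFB and 1 for dermal DC against P2 after DNFB, and the calls of Cxcr4 in P1 against blood (adjusted p = 0.112), Cx3cr1 in dermal DC against P3 (0.167) and Cx3cr1 in dermal DC with DNFB (0.123) were lost too. With array medians centred it was 1 for the node minus dermal DC effect, where Cxcr4 was -0.83 (adjusted p = 0.0858), and a 2-fold minimum left 1 there and 3 for P1 against blood. Quantile normalization ended the Ccr2 call in P1 against blood (0.0824), and array weights did too (0.0516). Ccr1 in node against dermal DC at steady state, adjusted p = 0.0583 as reported, passed under 6 settings, among them quantile normalization (0.023) and the compared groups alone (0.0131). Cxcr4 with DNFB in dermal DC passed with quantile normalization (0.0196). Array weights gave 2 for P5 against P4 and 1 for DNFB in node DC. Replicate numbers did not pair the arrays (median correlation of deviations 0.003 over 222 same-numbered pairs, 23 of them over 0.1, against 50 of 444 other pairs), and with a replicate block 2 receptors passed for P2 against P1 after DNFB, Cx3cr1 at -1.16 with adjusted p = 0.0259. By the number in the source names, 24 of 143 same-numbered pairs were over 0.1 (median 0.012), against 49 of 523 other pairs. DNFB arrays mostly carried other source numbers than steady-state arrays, so DNFB and source number are partly confounded. Leaving out single arrays gave 0 to 1 for DNFB in P1, 1 to 2 for P5 against P3, 1 to 2 for P5 against P4, 1 to 3 for DNFB in dermal DC, 1 to 2 for the node minus dermal DC effect, 0 to 1 for P2 against P1 after DNFB, 1 to 2 for dermal DC against P2 after DNFB, and 3 to 4 for P5 against dermal DC. Centring moved the median of all genes by over 0.1 for P1 against blood (-0.102), P4 against P1 (0.122) and node against dermal DC at steady state (-0.105), and with it the share of called genes that rose was 29.1% (41.2% as reported), 74.6% (60.6%) and 37.6% (50.1%) there, 35.5% (50.6%) for DNFB in dermal DC, 40% (52%) for the dermal DC minus P2 effect and 73.1% (62.1%) for the node minus dermal DC effect. Other settings moved this share too. With array weights it was 41.8% (79.2% as reported) for node CD64+ cells against node DC. With the skin cell marker covariates it was 88.8% (47.3%) for P3 against P2 and 76.2% (0%) for the P2 minus P1 effect. The cause of these moves was not tested. Counts of all genes called ranged over the settings from 289 to 2690 for P1 against blood (2520 as reported), 62 to 609 for P2 against P1 (416 as reported), 19 to 206 for P3 against P2 (74 as reported), 1128 to 2490 for P4 against P1 (2372 as reported), 19 to 142 for P5 against P4 (98 as reported), 18 to 270 for P5 against P3 (250 as reported), 101 to 428 for dermal DC against P3 (358 as reported), 679 to 1394 for P5 against dermal DC (1300 as reported), 80 to 474 for DNFB in P2 (402 as reported), 1 to 278 for DNFB in P1 (127 as reported), 490 to 1373 for DNFB in dermal DC (830 as reported), 162 to 765 for DNFB in node DC (268 as reported), 2331 to 4615 for node against dermal DC at steady state (4040 as reported), 2133 to 5705 for the same after DNFB (3486 as reported), 534 to 3259 for node CD64+ cells against node DC (961 as reported), 1551 to 3359 for node CD64+ cells against P2 (2517 as reported), 22 to 198 for P2 against P1 after DNFB (122 as reported), 436 to 919 for dermal DC against P2 after DNFB (673 as reported), 1 to 101 for the P2 minus P1 effect (11 as reported), 22 to 83 for the dermal DC minus P2 effect (50 as reported), 170 to 771 for the node minus dermal DC effect (261 as reported). Low signal limits Ccr1 and Ccr2 in node DC, since no detection calls exist.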
